A study of Mus musculus with 4 samples.

Results

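Regions of convergent transcription, where nascent RNA is made from both strands of the same DNA, were examined where they lie close together. The lists of 4 libraries were merged where regions shared at least 1 base, which gave 20175 merged regions, and 4972 of these were called in all 4 libraries. Neighbouring shared regions were joined into a chain when the gap between them was at most 20 kb. Chains of 3 or more regions were kept: 234 chains with 825 member regions, 16.6% of the shared regions. The members were selected on calling in every library and on position, so neither their presence in all libraries nor their closeness is a result.

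The libraries were made by global run-on sequencing (GRO-seq), in which engaged RNA polymerases are allowed to extend their transcripts in isolated nuclei and the labelled nascent RNA is sequenced with its strand. B cells from the spleens of C57BL/6 mice of genotype Fucci-EGFP+, whose fluorescent reporter follows the cell cycle, were stimulated in culture with LPS, IL4 and Rp105. There were 2 libraries of unsynchronized cells and 2 of sorted early G1 cells. For the early G1 libraries, nocodazole, a microtubule drug that holds dividing cells in mitosis, was given at 100 ng/ml from 42 h, EGFP+ cells (mostly G2/M) were sorted, and early G1 cells were sorted after 1.5 h back in culture. The deposited name of early G1 replicate 1 gives 1 h instead, and which of these holds is unknown. The treatment text is the same for all 4 libraries. That the unsynchronized cells had no nocodazole was inferred from their titles and time label. Nocodazole, the sorts and the return to culture cannot be told apart from the phase itself. Whether replicates are separate mice or cultures is not in the labels, and p-values therefore measure the spread among these 4 libraries, which can be technical. The lists carry no gene names and the labelled cell type was not checked against marker genes. All positions are in mouse build mm9, counted from 1.

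As background, polymerases that meet head-on, or pass over the same DNA from both sides, occur at gene starts with upstream antisense transcripts, at the ends of neighbouring genes that face each other, and inside genes that hold active enhancers. Enhancers are themselves transcribed in both directions, and clusters of strong enhancers therefore hold several places where sense and antisense transcripts overlap. In activated B cells, overlapping sense and antisense transcription within such clusters has been linked to off-target activity of AID, the deaminase that starts antibody class switching. The question the design puts to the chains is whether convergent transcription in them differs between early G1 and unsynchronized cells, and whether the regions of a chain differ together.

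Most chains were short. There were 153 chains of 3 regions, 55 of 4, 14 of 5, 9 of 6, 2 of 7 and 1 of 8. Chains spanned 7.03 to 94.5 kb with a median of 26.6 kb, and 6870 kb in all. The 591 gaps inside them ran from 7 to 19916 bp with a median of 5647 bp. Gaps of at most 1 kb made up 24.7% of them (146), and a further 22.3% (132) were over 1 and up to 5 kb, 22.7% (134) over 5 and up to 10 kb, and 30.3% (179) over 10 kb. At the threshold, the largest gaps inside chains were 19916, 19915 and 19868 bp, and the smallest gaps that ended a chain were 20025, 20300 and 20366 bp. With a limit of 10 kb in place of 20 kb there were 132 chains with 453 regions, and with 40 kb there were 373 with 1413.

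**Figure D1:**
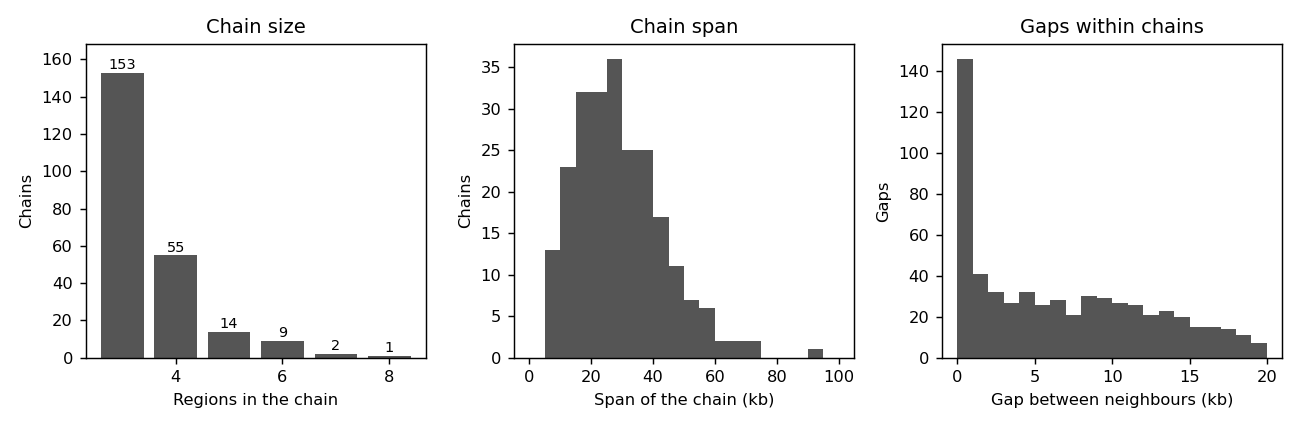
Number of chains by how many shared regions they hold (left), by span in kb (middle), and number of gaps between neighbouring regions by length in kb (right), for 234 chains and 591 gaps. Of the chains, 153 hold 3 regions and 1 holds 8, and the bin of gaps up to 1 kb holds 146 gaps.

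Chains lay on every chromosome with shared regions other than the mitochondrial one, which held 1 shared region. Chromosome 19 had the highest share of its shared regions in chains, 25.6% (55 of 215, in 14 chains), followed by chromosome 11 with 21.6% (94 of 435, in 28 chains). The lowest shares were on chromosome X with 5.22% (6 of 115), chromosome 18 with 7.09% (9 of 127) and chromosome 3 with 7.49% (17 of 227). These shares follow from the rule and from the density of shared regions on a chromosome, and are given as a description.

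Member regions were longer than the other shared regions. The merged length had a median of 2341 bp (171 to 34887 bp) in members and 1511 bp in the other 4147 shared regions. Regions over 5 kb made up 18.5% of the members (153) against 11.6% (483) of the others, and regions over 10 kb made up 5.94% (49) against 5.06% (210). At least 1 library reported the region as more than 1 separate piece for 26.2% of members (216) and 18.2% of the others (753). The called length was within 1.5-fold across the 4 libraries in 38.5% of members (318) and 39.9% of the others (1654). These are descriptions without a test, since neighbouring regions are not replicates, and the part of length in the splitting was not tested.

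The level of convergent transcription in members was close to that of other shared regions. The signal is the authors' geometric mean of the strands, and its median over members was 18.0 and 23.3 in unsynchronized replicates 1 and 2, and 29.7 and 25.8 in early G1 replicates 1 and 2. In the other shared regions the medians were 16.7, 22.3, 26.7 and 26.7 in the same order. On the log2(signal + 1) scale, members minus others came to 0.10, 0.066, 0.15 and -0.046, so only early G1 replicate 2 had members below the others. The mean of this difference in early G1 minus that in unsynchronized cells was -0.031 (exact permutation test over the 4 libraries, two-sided, p = 1; with 2 against 2 libraries no p below 0.33 can be reached). That value was 0.0656 without early G1 replicate 2 and 0.0499 when signal was multiplied by called length, so its sign rests on the setting.

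Members held 22.8% and 21.7% of the signal of all shared regions in unsynchronized cells against 22.7% and 20.5% in early G1 (exact permutation test, two-sided, p = 0.667). Of a chain's span, a median of 30.4% and 26.9% was called as convergent in unsynchronized cells against 30.5% and 28.2% in early G1 (exact permutation test, two-sided, p = 0.667). Between chains the called share of the span ran from 2.57% to 95.5% over the 4 libraries.

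By their inferred sizes the early G1 libraries were shallower. Library sizes inferred from the signal values were 14720000 and 13480000 reads without synchronization and 8170000 and 9520000 reads for early G1, to the nearest 10000, and the part of this in the differences between groups was not tested. The median member held 468, 508, 483 and 377 reads in the 2 unsynchronized libraries and then the 2 early G1 libraries, where reads are the geometric mean over the strands recovered from the signal. For the median member, counting reads leaves an error of no less than 3.14% to 3.64% of its signal. Duplicates of a molecule were not examined, so other error is not in this value. Members with under 10 reads numbered 2, 1, 2 and 9 in the same order. The fewest reads in a member were 4, 4, 1 and 0. A region listed as called can therefore carry a signal of 0, as in early G1 replicate 2.

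Not every called region inside a chain was shared. Besides the members, 323 merged regions that at least 1 library lacked lay inside the spans of 143 chains, at most 9 in a chain. Of these, 169 were called in 1 library, 85 in 2 and 69 in 3. Those called in both unsynchronized libraries only numbered 27, and those called in both early G1 libraries only numbered 22. Had calls in at least 3 libraries been enough, the rule would have given 619 chains with 2365 regions.

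The chain with the most regions, and also the longest, was chr6:48626380-48720919, with 8 regions over 94.5 kb, of which 57.1% was called in at least 1 library. Values below are given for replicate 1 and then replicate 2 of each group. The strongest region of this chain by mean signal was chr6:48689071-48691452, with signals of 142 and 190 in unsynchronized cells against 193 and 121 in early G1 cells. Its neighbour chr6:48693355-48697778, had 114 and 174 against 173 and 125. These neighbours are 1902 bp apart, and for both the early G1 libraries lay on either side of the unsynchronized ones or between them. The weakest, chr6:48707092-48708775, had 5.23 and 2.87 against 8.55 and 11.99, and was the single region of this chain in which both early G1 libraries lay above both unsynchronized ones. The mean signals of the strongest and weakest regions of this chain differed 22.6-fold. The mean log2 level of the chain was 5.33 and 5.50 against 5.88 and 5.30, a change of 0.17 (SE 0.40, limma adjusted p = 0.836), which turned to -0.27 when each library was divided by its median.

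**Figure D2:**
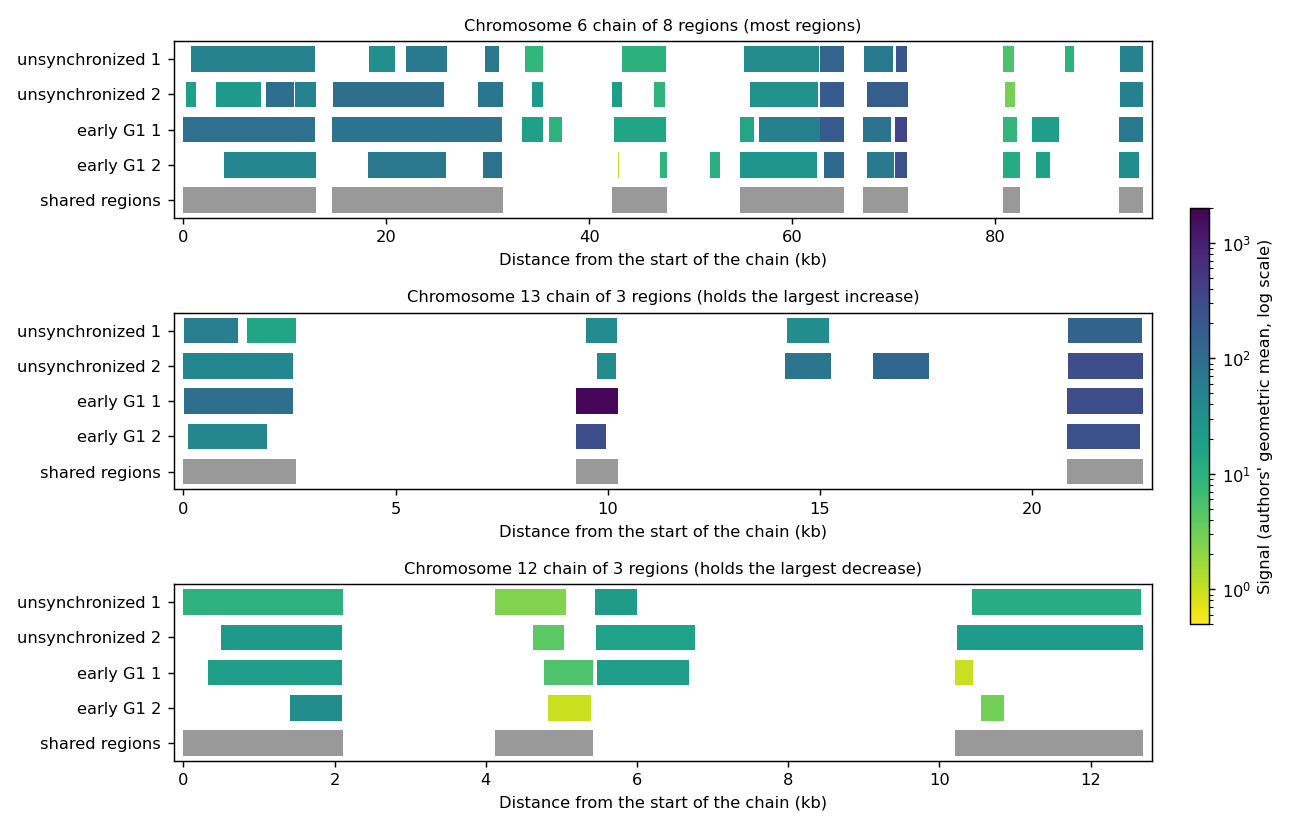
Called regions of each library (rows) along 3 chains, with distance from the start of the chain in kb on the horizontal axis, colour for the signal on a log scale (values beyond the scale take its end colour), and the merged regions called in all 4 libraries in grey. The chromosome 6 chain holds 8 grey regions (the fourth and the fifth are 8 bp apart and touch in the drawing), the middle region of the chromosome 13 chain is darkest in early G1 replicate 1 at 1719, and the last region of the chromosome 12 chain is called over 2243 and 2452 bp in the unsynchronized libraries against 234 and 311 bp in early G1.

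Of the chains with 7 regions, chr16:84584335-84649526 spanned 65.2 kb and chr4:32420577-32478193 spanned 57.6 kb. In the chromosome 16 chain the first region, chr16:84584335-84585440, was the strongest in all 4 libraries, with 51.9 and 78.6 in unsynchronized cells against 128 and 57.4 in early G1 cells. Its last region, chr16:84646766-84649526, had 7.41 and 15.002 against 28.3 and 31.8, with no overlap of the groups. The second, chr16:84604172-84611510, had 14.7 and 20.2 against 44.9 and 5.51, so the early G1 libraries bracketed the others. The change in the mean level of the chain was 0.39 (SE 0.46, limma adjusted p = 0.679), or -0.047 after dividing by the library medians and -0.15 without early G1 replicate 1.

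In the chromosome 4 chain of 7 regions, the mean signals over libraries of the strongest and weakest regions differed 2.11-fold, though single libraries varied more along the DNA. Its last and longest region, chr4:32467262-32478193, had 8.30 and 10.7 in unsynchronized cells against 54.8 and 6.06 in early G1, and the groups overlapped. Only the first region, chr4:32420577-32423822, was without overlap, at 14.0 and 15.7 against 40.4 and 19.3. In the fourth, chr4:32443915-32445747, the early G1 libraries were the lowest and the highest of all, at 2.69 and 25.2, so early G1 replicate 1 ran from 2.69 here to 54.8 in the last region. The change in mean level was 0.54 (SE 0.47, limma adjusted p = 0.575).

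**Figure D3:**
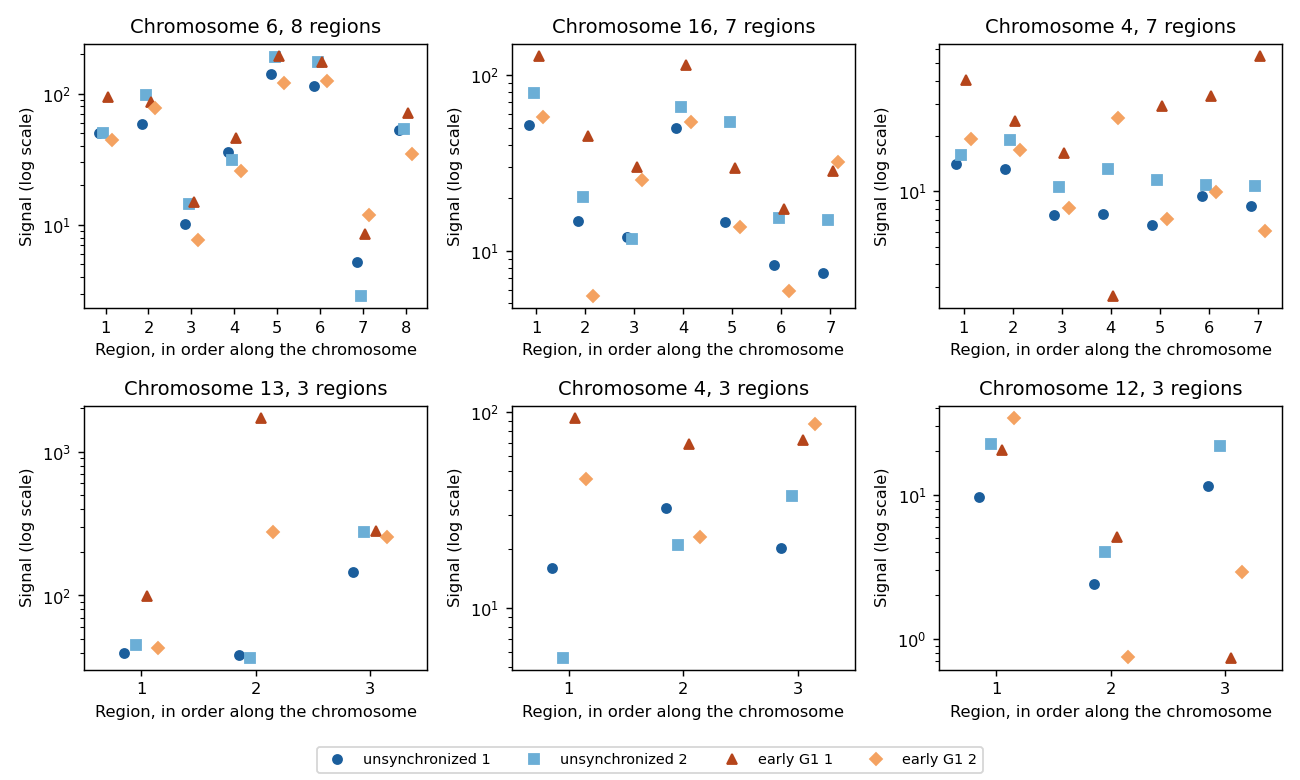
Signal of each member region in each library on a log scale, by order along the chromosome, for the 3 chains with the most regions (top) and for chains of 3 regions on chromosomes 13, 4 and 12 that hold the largest changes (bottom). Points are single libraries. In the chromosome 13 chain the second region is at 38.3 and 36.9 in the unsynchronized libraries and at 1719 and 278 in early G1, while the libraries of the third region lie between 146 and 281.

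Among the chains of 6 regions, chr13:43845825-43889091 (43.3 kb) was the one of the 7 named here whose every region had a change above 0, from 0.51 to 1.01. Its mean levels were 5.01 and 4.55 in unsynchronized cells against 5.94 and 5.23 in early G1 cells, and 4 of its 6 regions were without overlap. Its strongest region, chr13:43880540-43884487, had 89.6 and 87.0 against 133 and 140. In chr17:35309781-35380202 (70.4 kb), 4 of 6 regions were higher without overlap and the first, chr17:35309781-35312228, ran the other way with 7.70 and 18.0 against 12.02 and 1.58. Member changes in that chain ran from -1.15 to 1.45, and it held the most regions not shared by all libraries, 9.

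The chain chr16:10487055-10543262 (56.2 kb) held regions without overlap in both directions. The third region, chr16:10494070-10496178, had 34.2 and 39.3 in unsynchronized cells against 30.2 and 25.5 in early G1 cells, and the fourth, chr16:10496422-10499428, only 243 bp away, had 12.7 and 14.6 against 15.8 and 14.8. The change in the mean level of the chain was -0.14 (SE 0.40, limma adjusted p = 0.867), which turned to 0.039 without unsynchronized replicate 2 and to 0.095 without early G1 replicate 2. In chr19:41395577-41459841 (64.3 kb), chr19:8810279-8884884 (74.6 kb) and chr9:107191212-107242790 (51.6 kb) the groups overlapped at chain level, with changes of 0.46, 0.19 and 0.33. The last of these values turned to -0.095, and the middle one to -0.24, after dividing by the library medians. The 5 longest chains also included chr2:34609621-34679068, with 5 regions over 69.4 kb and a change of 0.36 (SE 0.40), or -0.081 after that scaling.

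The strongest members stood among far weaker neighbours. In chr11:48650898-48689146 (38.3 kb), the third of 6 regions, chr11:48670027-48670583, had signals of 1977 and 1718 in unsynchronized cells against 3196 and 2424 in early G1 cells, 166-fold the mean signal of the weakest region of its chain. The second region, chr11:48654225-48656349, had 13.2 and 15.8 against 13.4 and 19.8. In chr11:68822008-68854901, the last region, chr11:68854308-68854901, had 1458 and 1321 against 4881 and 1582, 345-fold the weakest of its chain and the widest ratio of all chains. The region chr1:134930496-134931003 had 1708 and 2217 against 3491 and 1793, and here the groups overlapped.

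The other members of highest mean signal varied more between replicates than between groups. The region chr13:23518332-23519060 had 1171 and 298 in unsynchronized cells against 2481 and 598 in early G1 cells, with replicate 1 above replicate 2 in both groups. In chr11:95893989-95894217 the signals were 1026 and 657 against 1123 and 215, and the change of -0.74 turned to 0.45 without early G1 replicate 2. In chr13:23646834-23648037 they were 459 and 1192 against 422 and 763. None of these 6 regions of highest signal passed the limma threshold with all 4 libraries, and all are short, at 229 to 1204 bp.

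Which region of a chain was strongest was the same in all 4 libraries in 140 chains (59.8%). The mean signal of a chain's strongest region was a median of 3.52-fold that of its weakest, from 1.15-fold to 345-fold. Of the 1134 pairs of regions within chains, 774 (68.3%) had the same order of signal in every library. The order differed between the unsynchronized libraries in 165 pairs (14.6%) and between the early G1 libraries in 215 (19.0%). Both unsynchronized libraries had one order and both early G1 libraries the other in 45 pairs (3.97%).

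The shift of members between early G1 and unsynchronized cells was about that of all shared regions. The median change of members was 0.43 on the log2 scale and that of all shared regions 0.41, or 1.33-fold. Of the members, 653 (79.2%) had a change above 0, and of all shared regions 78.0%. The median for members was 0.22 without unsynchronized replicate 1, 0.61 without unsynchronized replicate 2, 0.33 with early G1 replicate 1 left out and 0.51 with replicate 2 of early G1 left out. When each library was divided by its median over shared regions, the members' median was -0.022. That scaling places the median over shared regions near 0 by construction, so the value says nothing about the shift itself. Changes of single regions and of chains, and their tests, are taken against 0. They therefore still include the shift, unless the median scaling or a comparison with the shift is named.

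Both early G1 libraries lay above both unsynchronized libraries in 363 members (44.0%) and below in 36 (4.36%), and the groups overlapped in 426. Over all shared regions these shares were 43.9% and 4.67%, so members were near the background in both directions. After dividing by the library medians, 149 members (18.1%) were higher without overlap and 172 (20.8%) lower, against 19.5% and 22.9% of all shared regions.

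In limma fitted to all 4972 shared regions, 3 members passed an adjusted p of 0.05, all higher in early G1 (0.364% of members), and 0 members passed in the lower direction. The background was 0.302% higher and 0.0402% lower. Before adjustment, at p under 0.05, there were 102 members higher (12.4%) and 9 lower (1.09%), against 13.9% and 0.945% of all shared regions. The count of 3 rests on the setting. Leaving out a library leaves its group with 1, so the spread then comes from the 2 libraries of the other group and limma's pooled prior. This takes the spread of the single library to be the same as theirs. Regions that pass only in such a fit are not counted as called. The count changed with every library left out. The share of all shared regions that pass is not given for those fits, so no trait of members is read from them. With all 4 libraries, the count of 3 became 0 with the median scaling, with signal times called length, or without the mean-variance trend.

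The largest change was in the middle region of a chain of 3 on chromosome 13, chr13:22121066-22122063, a region of 998 bp. Its signal was 38.3 and 36.9 in unsynchronized cells against 1719 and 278 in replicates 1 and 2 of early G1, resting on 411, 226, 14009 and 1874 reads. Both early G1 libraries were far above the unsynchronized ones, and they differed from each other more than the unsynchronized ones did. The change was 4.17 on the log2 scale (SE 0.63, limma adjusted p = 0.0237). Its neighbours in the chain did not pass: chr13:22111821-22114474, 6591 bp before it, had 39.7 and 44.9 against 98.9 and 43.4, and chr13:22132638-22134426, 10574 bp after it, had 146 and 277 against 281 and 256. In each of those neighbours 1 early G1 library lay within the range of the unsynchronized ones. Over 11 alternatives the change of the middle region ran from 2.85 to 5.48. With all 4 libraries this region did not pass with median scaling, with signal times called length or without the trend. Nor did it pass with either unsynchronized library left out.

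In the chain chr4:133640636-133659136, the first region, chr4:133640636-133651032, had 16.0 and 5.597 in unsynchronized cells against 93.9 and 45.5 in early G1 cells, a change of 2.65 (SE 0.52, limma adjusted p = 0.0454). The length called here differed widely: 10397 bp in unsynchronized replicate 1 against 1589, 2377 and 2418 bp in the others. With signal times called length the change was 1.95 with an adjusted p of 0.519 in limma. Merging within 1 kb, another alternative, joins this region with the next one, 205 bp away. Over all 11 alternatives its adjusted p ran from 2.9e-05 to 0.519 and the change from 1.47 to 3.33. The third region of the chain, chr4:133658513-133659136, also had groups without overlap, at 20.3 and 37.4 against 71.8 and 87.1. The second, chr4:133651238-133655655, overlapped at 32.4 and 21.04 against 69.2 and 23.0.

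The remaining region past the threshold was the first of 5 in chr19:44326884-44369362. This region, chr19:44326884-44328864, had 14.2 and 11.2 in unsynchronized cells against 61.5 and 53.7 in early G1 cells, so replicates were close in both groups and its called length was within 1529 to 1981 bp. Its change was 2.10 (SE 0.41, limma adjusted p = 0.0454). With all 4 libraries it did not pass with median scaling, with signal times called length or without the trend. It passed in fewer of its 11 alternatives than chr13:22121066-22122063 or chr4:133640636-133651032. The last region of the same chain, chr19:44368503-44369362, had 125 and 217 against 184 and 148, with the early G1 libraries inside the range of the others. Over the 11 alternatives the change of the first region ran from 1.65 to 2.26 and its adjusted p in limma from 0.0133 to 0.354.

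Further large increases without overlap did not pass in limma. In chrX:45496832-45499081 the signal was 1.096 and 1.75 in unsynchronized cells against 16.8 and 5.33 in early G1 cells, on 4, 13, 308 and 61 reads (change 2.14, SE 0.84). With signal times called length this change was 3.41. Merging regions within 1 kb joined the region with its neighbours, 51 and 524 bp away, and the change of the joined region was 0.59. In chr2:75507789-75511644 it was 6.39 and 41.4 against 53.7 and 90.2, with 323 bp called in unsynchronized replicate 1 and 2442 to 3781 bp in the others. Its change was 1.996 with all libraries and 0.74 without unsynchronized replicate 1. The region chr10:66650216-66652053 had the closest replicates, at 9.92 and 10.6 against 42.7 and 42.4, with a change of 1.95 (SE 0.41, limma adjusted p = 0.0657). Its adjusted p in limma ran from 0.0358 to 0.354 over its alternatives, the lowest with a single early G1 library.

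The largest decrease without overlap was in chr12:88233919-88236398, the last of 3 regions of its chain. Its signal was 11.5 and 21.7 in the unsynchronized libraries, over 2243 and 2452 bp, against 0.740 and 2.90 in early G1, over 234 and 311 bp. The early G1 values rest on 1 and 9 reads. The change was -2.69 (SE 0.71, limma adjusted p = 0.138). Its adjusted p in limma ran from 0.00213 to 0.441 over its alternatives, the lowest with a single early G1 library that holds 1 read here. The first region of that chain, chr12:88223709-88225818, had 9.67 and 22.2 against 20.4 and 34.0, with the groups overlapping and a change of 0.80.

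Of the next 5 decreases without overlap, 4 were called over unequal lengths. In chr6:83057946-83059271 the signals were 89.997 and 245 in unsynchronized cells against 82.7 and 15.6 in early G1 cells, over 247, 160, 359 and 1150 bp (change -2.004, SE 0.64). Its adjusted p in limma ran from 0.000739 to 0.774 over its alternatives, the lowest with a single early G1 library. In chr10:117075706-117077510 they were 16.1 and 31.6 against 7.67 and 6.50, over 211, 141, 1490 and 435 bp, and the change of -1.55 turned to 0.49 with signal times called length. In chr8:123239068-123240338 they were 19.3 and 41.7 against 10.8 and 12.9, over 328, 320, 1214 and 425 bp. The region chr16:19024243-19027317 was called over like lengths, 2762 to 3075 bp, at 30.1 and 45.9 against 26.8 and 7.58 (change -1.31, SE 0.53). In chr8:4254389-4258503 the signals were 7.07 and 14.8 against 5.84 and 2.08, over 3769, 2325, 2958 and 349 bp, the last on 7 reads.

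Taking each chain as 1 unit, by the mean log2 level of its regions, limma was fitted over the 3852 chains of any size, single regions and pairs included. Of the 234 chains of 3 or more, 0 passed an adjusted p of 0.05, and the smallest adjusted p in limma was 0.128. The background was 0.182% higher and 0% lower. Before adjustment, at p under 0.05, 22 chains (9.40%) were higher and 0 lower, against 14.8% and 0.857% of chains of any size. Both early G1 libraries lay above the unsynchronized ones in 120 chains (51.3%) and below in 5 (2.14%), and 109 overlapped. Of chains of any size, 44.7% were higher and 4.62% lower. Most of that background, 3089 of 3852, is single regions, and a mean over several regions varies less by averaging. The shares of the 234 chains and of the background are therefore not like for like, and no trait of chains is read from them. In the fit without early G1 replicate 2, where the unsynchronized libraries alone give the spread, the chains on chromosomes 13 and 4 described above passed (2 chains), and with any other library left out 0 passed. In the chromosome 13 chain the early G1 library kept in that fit is the higher one, with a mean level of 8.51 against 7.20 in the one left out.

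The largest increases at chain level were 1.73 in chr13:22111821-22134426 (SE 0.46) and 1.58 in chr4:133640636-133659136 (SE 0.42), with the regions past the threshold inside. Without early G1 replicate 1 the first of these was 1.08. In chr10:66644140-66652053, a chain of 3 regions over 7.91 kb with gaps of 47 and 366 bp, all 3 regions were higher without overlap. Its middle region, chr10:66648416-66650168, had 30.2 and 47.4 in unsynchronized cells against 82.8 and 110 in early G1 cells, and the first, chr10:66644140-66648049, had 4.33 and 4.86 against 8.38 and 11.9. The chain had a change of 1.42 (SE 0.40, limma adjusted p = 0.135). In chrX:45491278-45501138 (9.86 kb) all 3 regions were higher without overlap as well, with a chain change of 1.22 (SE 0.43). Merging within 1 kb joined these regions into a single one, with a change of 0.59.

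In chr1:135957586-135990579 the chain had a change of 1.27 (SE 0.44), or 0.79 without unsynchronized replicate 1. Unsynchronized replicate 1 was the lowest library in its first region, chr1:135957586-135959558, at 0.621 against 22.2, 22.5 and 14.6 in the others. Its second region, chr1:135959887-135962151, had 13.1 and 13.4 against 32.6 and 56.0. The groups overlapped in the first and the last of its 4 regions.

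With all 4 libraries, the largest decrease at chain level was -1.002 (SE 0.50, limma adjusted p = 0.331) in chr16:19005592-19030036. It was -0.39 without early G1 replicate 2 and -0.44 without unsynchronized replicate 2, and ran to -1.61 without early G1 replicate 1. Early G1 replicate 2 was lowest there: the first region, chr16:19005592-19007561, had 36.2 and 54.6 against 44.0 and 11.1. The chain chr9:51019295-51033912 was the most uniform of the 5 largest decreases. Its 4 regions lie within 14.6 kb and had changes of -0.97 to -0.66. The second and strongest, chr9:51021676-51024200, had 175 and 228 in unsynchronized cells against 130 and 122 in early G1 cells. The third, chr9:51024640-51026565, had 58.0 and 68.4 against 30.1 and 33.4, and the fourth, chr9:51028561-51033912, had 63.0 and 66.3 against 35.6 and 42.5. At chain level the change was -0.78 (SE 0.39, limma adjusted p = 0.343), and -0.58 without early G1 replicate 2. In 3 of its 4 regions early G1 was lower without overlap.

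In chr12:35170887-35213799 the chain had a change of -0.75 (SE 0.43), or -0.34 without unsynchronized replicate 2, with the groups apart in the first region, chr12:35170887-35171974, at 14.7 and 19.7 against 6.98 and 7.50. The middle region, chr12:35180949-35197358, which is 16410 bp long, overlapped at 20.8 and 48.9 against 30.7 and 20.7. In chr12:88223709-88236398 (change -0.75, SE 0.64) and chr6:83057946-83075296 (change -0.68, SE 0.44) the widest change was in the region described above, while in the other regions the groups overlapped. Without unsynchronized replicate 2 these chain changes were -0.32 and -0.25, and the latter was -0.035 with signal times called length.

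All regions were higher without overlap in 27 of the 234 chains and all lower in 0, where 43.9% of all shared regions were higher and 4.67% lower, and 19 chains held regions without overlap in both directions. After dividing by the library medians, all regions were higher in 2 chains and all lower in 4. The 27 include 4 chains of 5 regions, named here after their values were seen. In chr3:60276987-60320395 (43.4 kb) the mean levels were 4.60 and 4.76 against 5.59 and 5.95, and the changes of its regions were 0.85 to 1.46. Its first region, chr3:60276987-60279313, had 80.5 and 93.6 in unsynchronized cells against 210 and 227 in early G1 cells, and its last, chr3:60318526-60320395, had 15.8 and 18.7 against 35.8 and 66.9. The others were chr2:3630732-3648730 (change 0.92), chr6:117824505-117868389 (0.79) and chr1:80610017-80661872 (0.61), each with an SE of 0.39 to 0.41 and an adjusted p of 0.214 to 0.438 over these 4 chains in limma.

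**Figure D4:**
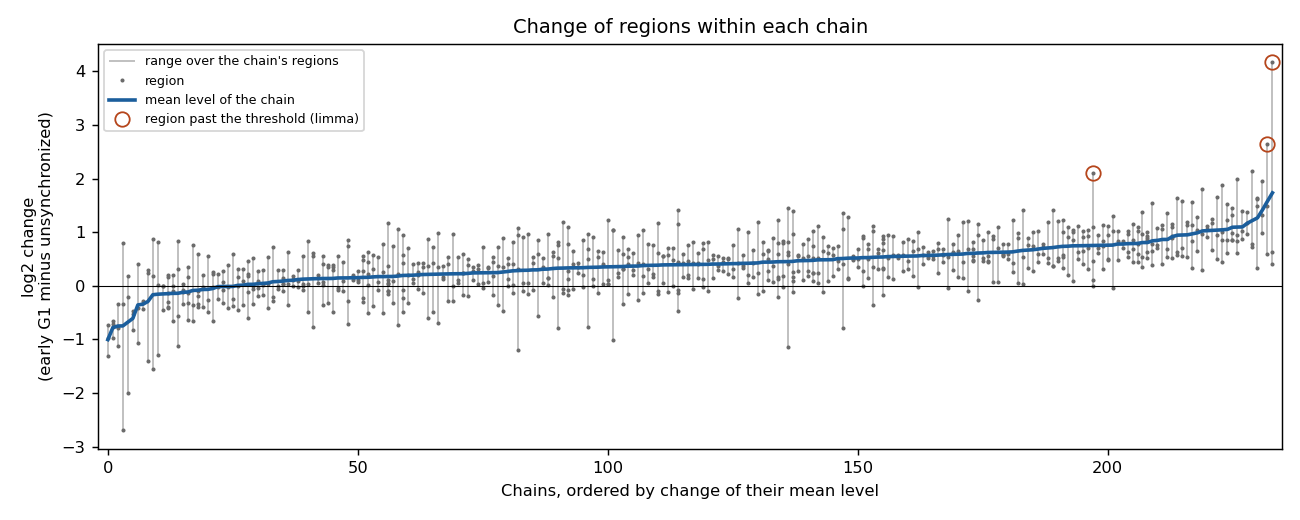
Change in log2 signal, early G1 minus unsynchronized, for each of 825 member regions (dots), with the range over each of 234 chains (vertical lines), chains ordered by the change of their mean level (blue line), and circles around the 3 regions past the limma threshold. Most chains span a range of changes, with a median width of 0.80, and 111 chains hold regions on both sides of 0; after dividing by the library medians the members' median is -0.022.

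The SD of members' changes within chains, pooled over chains, was 0.50. The fitted SD between replicate libraries, from 2 libraries a group, had a median of 0.40 over members. A pooled SD and a median of single SDs are unlike measures, so whether regions of a chain differ beyond replicates is not read from them. The SD of the chains' mean changes was 0.39, but a mean over 3 to 8 regions varies less than a single region by averaging, so this value is not set against the other SDs. The range of changes within a chain had a median of 0.80, from 0.061 in the most even chain to 3.75 in the chromosome 13 chain of the largest increase. In 118 chains every region had a change above 0, in 5 every region was below 0, and in 111 the signs were mixed. Of all shared regions, 78.0% had a change above 0, so these counts are not read as regions of a chain changing together. Set against the shift of all shared regions, 42 chains had every region above it, 36 every region below it and 156 had regions on either side.

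By correlation, changes of neighbours in a chain were most alike where the gap was at most 1 kb. By their median absolute difference, gaps of at most 1 kb and gaps over 1 and up to 5 kb were about the same. The changes of neighbouring members had a Pearson r of 0.45 over 146 pairs with a gap of at most 1 kb, 0.14 over 132 pairs with gaps over 1 and up to 5 kb, and 0.14 over 313 pairs with gaps over 5 kb. Neighbouring shared regions more than 20 kb apart, which are in different chains, had an r of 0.031 over 3831 pairs. The median absolute difference between neighbours was 0.31, 0.32, 0.48 and 0.50 in the same order. These are descriptions without a test: pairs share the 4 libraries, and a region belongs to up to 2 pairs. Merging regions within 1 kb of each other left 180 chains with 617 regions.

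**Figure D5:**
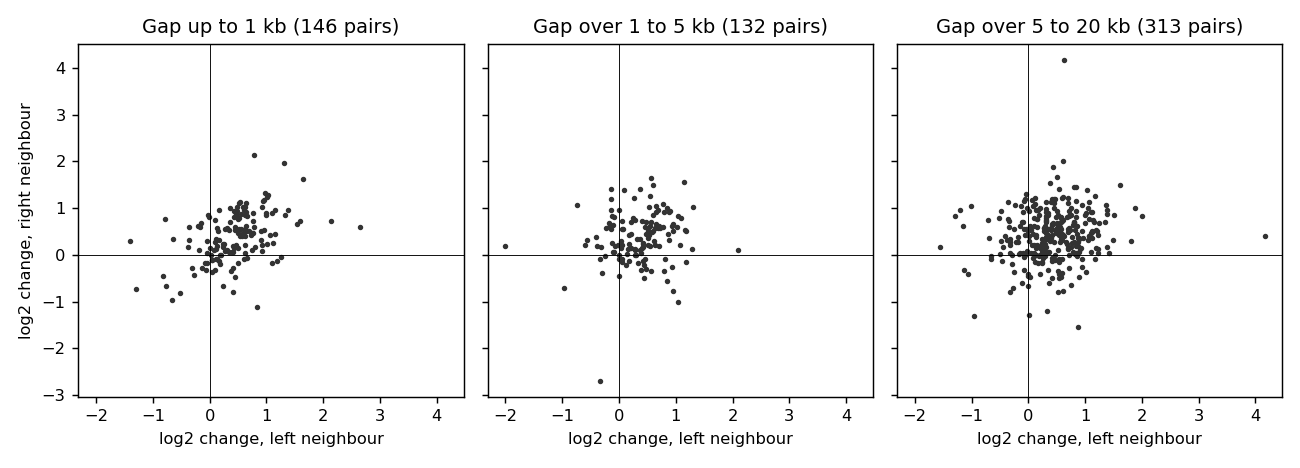
Change in log2 signal, early G1 minus unsynchronized, of neighbouring regions within chains, the left neighbour on the horizontal and the right neighbour on the vertical axis, by the gap between them. The Pearson r is 0.45 over 146 pairs in the left plot, 0.14 over 132 in the middle and 0.14 over 313 in the right one.

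To set aside differences between libraries in overall level, each region was also compared with the mean of the other regions of its chain in the same library, and limma was fitted over the 1883 regions in chains of 2 or more. Of the members, 0 passed, with a smallest adjusted p of 0.379 in limma, and the background was 0% in both directions. Before adjustment, at p under 0.05, 19 members (2.30%) were higher relative to their chain in early G1 and 22 (2.67%) lower, against 3.93% and 4.09% of the regions tested. In pairs the regions mirror each other, so the background counts such changes in both directions. Some members passed with either unsynchronized library left out, where the spread comes from the early G1 libraries and the prior. The share of all tested regions that pass is not given for those fits. No trait of members is therefore read from them.

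Relative to its chain, chr13:22121066-22122063 stood at -0.98 and -1.58 in unsynchronized cells and at 3.36 and 1.39 in early G1 cells, so it lay below the mean of its neighbours in the former and above it in the latter. The change was 3.65 (SE 0.68, limma adjusted p = 0.379). The region chr19:44326884-44328864 likewise stood at -0.34 and -0.62 against 0.77 and 1.64, and chr4:133640636-133651032 at -0.65 and -2.14 against 0.41 and 0.014. For the latter the change was 1.60. Merging within 1 kb joined it with the next region, 205 bp away, and the relative change of the joined region was -0.016.

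On chromosome 12, chr12:88223709-88225818 stood at 0.71 and 1.12 above its chain in unsynchronized cells and at 2.72 and 3.75 in early G1 cells, and chr12:88233919-88236398 at 1.06 and 1.08 against -2.71 and -1.002. In the signal of chr12:88223709-88225818 itself the groups overlapped. The region between them enters both comparisons and was weak, with signals of 2.39 and 3.99 in unsynchronized cells against 5.04 and 0.745 in early G1 cells. These regions are in 1 chain, so each enters the other's comparison. The same holds in chr10:117064766-117085205, where chr10:117064766-117066438 stood at -0.90 and -1.07 against 0.80 and 0.37, and chr10:117075706-117077510 at -0.053 and 0.43 against -2.26 and -1.53. With signal times called length the latter's change of -2.08 turned to 0.27.

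Further decreases relative to a chain were in regions of few reads or of unequal called length. The region chr13:23523784-23524512 stood at -4.58 and -3.51 in unsynchronized cells and at -6.03 and -6.19 in early G1 cells, next to the strong region chr13:23518332-23519060. It held 105, 82, 42 and 4 reads. In chr6:83057946-83059271 the values were 2.43 and 3.29 against 2.05 and -0.31, and in chr8:123239068-123240338 they were 0.44 and 1.37 against -1.45 and -0.71. None of these passed with all 4 libraries. In the fits with a single unsynchronized library, those that passed without replicate 1 included chr13:22121066-22122063, chr4:133640636-133651032, chr6:83057946-83059271 and chr8:123239068-123240338, and without replicate 2 they were chr13:22121066-22122063 and chr12:88223709-88225818.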

How the data were processed

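GRO-seq region lists of 2 unsynchronized and 2 early G1 libraries were used, grouped by the sample titles. Each deposited list gives a position and a signal that the authors made as a geometric mean of convergent transcription, per the file headers. BWA 0.7.12, HOMER and mm9 are named per the submitters' processing notes; the rule that called a region is not stated in the sources used here. The signal's scaling is unstated. If it scales as RPKM does, products of strand reads below 1000 came out whole (tolerance 0.1) for 100% of the regions tested, and library sizes and reads were inferred on that basis.

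Where a library had several pieces in a merged region, they were averaged with their lengths as weights. Changes were fitted in R 4.3.3 with limma 3.58.1 (lmFit, then eBayes with trend, two-sided) on log2(signal + 1), with Benjamini-Hochberg adjustment over each whole table at 0.05 and no filter on low values; this scale understates changes of low regions. The code was tested on simulated data. Single values per library were compared by an exact permutation test. Tables were made with Python 3.11.15, pandas 2.3.3 and scipy 1.17.1.

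Named were the 10 chains with most regions (ties by span), the 5 longest, every member and chain past the threshold, the 6 largest changes of members without overlap in each direction, the 6 members of highest mean signal, the 5 largest chain changes and the 5 largest relative changes without overlap in each direction, and the 3 gaps on either side of 20 kb. Members and rules were chosen with earlier results of these data known. Alternatives were a pseudocount of 0.1, signal times called length, a mean signal of at least 5, median scaling, no trend, a replicate block, merging within 1 kb, gaps of 10 and 40 kb, chains of 4 or more, calls in at least 3 libraries, and leaving out each library. Sequences and gene names were not used here, since the reference tables at hand are of another build.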

Additional observations from a re-analysis of the deposited data

How the results depend on the processing

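With 2 libraries a group, the calls rested on single libraries and also on settings that kept all 4. Regions of few reads or unequal called length are named above, and their part in this was not tested. The 3 members called became 0 with signal times called length, with median scaling or without the trend, 1 with merging within 1 kb, 7 with gaps up to 40 kb and 1 with chains of 4 or more, and ran from 0 to 10 with a library left out. In those fits 1 group has a single library, which is assumed to vary like the other group. Chains called ran from 0 to 2 and members called relative to their chain from 0 to 5 with a library left out. The labels' replicate numbers give only 2 pairs, whose deviations correlated at 0.20 over members and 0.10 over shared regions; with the replicate block 2 of the 3 members were called, 0 chains and 0 relative changes. Counts of chains and members were 132 and 453 with gaps up to 10 kb, 373 and 1413 with 40 kb, 81 and 366 with chains of 4 or more, and 619 and 2365 with calls in at least 3 libraries; these follow from the rule. Chains with the same strongest region were 47.2% with merging within 1 kb. The difference of members from others between groups, -0.031, became 0.0499 with signal times called length, 0.0058 with merging within 1 kb and 0.054 with gaps up to 10 kb, and ran from -0.13 to 0.066 with a library left out; the cause was not tested.

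Signs turned under 19 combinations of a named value and an alternative. Median scaling takes the shift of all shared regions out of each change by construction. For the other alternatives the cause was not tested. With signal times called length, chr10:117075706-117077510 turned to 0.49, and to 0.27 relative to its chain. With median scaling, values turned to -0.047 for chr16:84584335-84649526, -0.24 for chr19:8810279-8884884, -0.10 for chr1:134930496-134931003, -0.081 for chr2:34609621-34679068, -0.27 for chr6:48626380-48720919 and -0.095 for chr9:107191212-107242790. With merging within 1 kb, chr4:133640636-133651032 turned to -0.016 relative to its chain, but there it is joined with the next region. With a library left out, values ran from -1.93 to 0.45 for chr11:95893989-95894217, from -1.07 to 0.31 for chr13:23646834-23648037, from -0.38 to 0.095 for chr16:10487055-10543262, from -0.15 to 0.94 for chr16:84584335-84649526, from -0.077 to 0.47 for chr19:8810279-8884884, from -0.12 to 0.84 for chr1:134930496-134931003, from -0.11 to 0.46 for chr6:48626380-48720919 and from -0.0065 to 0.68 for chr9:107191212-107242790. Of the other named values under alternatives, all with the sign kept, 572 stayed on their side of the threshold, 14 came to pass it and 18 no longer did.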
